A study of Gallus gallus with 6 samples.

Results

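Gene-end regions open in every bird were stretches of chromatin on chromosomes 1 to 10 that carried an ATAC-seq peak in each of 6 chickens and lay close to an end of a protein-coding gene. They were chosen by the calls in the deposited peak lists: peaks of the 6 libraries that overlapped by at least 1 bp were merged into union regions, and a region was kept if it was called in all 6 libraries, was under 1500 bp wide and had its midpoint within 1000 bp of either annotated end of a coding gene. This selected 2766 regions, which were 2.76% of the 100148 union regions of the genome and 3.88% of the 71257 on chromosomes 1 to 10. ATAC-seq uses the transposase Tn5 to cut DNA that is not wrapped around nucleosomes, so a peak marks chromatin that the enzyme could reach. The libraries came from abdominal fat of NEAUHLF chickens, a population of broilers bred in opposite directions for abdominal fat, and the labels give the lines as FL and LL. Each line had 3 birds with 1 library per bird, all untreated as far as the labels say, and the sources used here do not give the birds' age or sex. Positions are in the assembly GRCg7b.

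As background, the start of an active gene is usually kept free of nucleosomes, so that the general transcription factors and the RNA polymerase can bind. Promoters of genes that most cells need, such as those for making proteins, tend to be accessible in all tissues, whereas enhancers inside and between genes are more often open in a single cell type. Neighbouring genes that are read in opposite directions can share a single open promoter between them. The gene table used here gives no strand, so the start of a gene and its other end cannot be told apart, and both are called gene ends.

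The lists held between 15628 peaks (LL replicate 3) and 73410 peaks (LL replicate 1). Values for single birds are given throughout in the order of replicates 1, 2 and 3, FL before LL where all 6 stand together. The fragments that covered the highest point of a peak, its summit, had a median over the 2766 regions of 155, 45, 48, 235.5, 48 and 45, as solved from the deposited columns. FL replicate 1 and LL replicate 1 thus had the most fragments per region, and they stood apart from the rest. Across the 2766 regions the Spearman correlation of strength was 0.931 between these libraries of different lines and between 0.444 and 0.779 for every other pair, a description over regions that share library and depth. Of the defining markers of fat cells, between 4 and 6 of 6 had a peak at a gene end in each library, and PPARG, FABP4 and LPL had one in all 6, for LPL not at the same end. Endothelial markers were called for 4 and 5 of 5 genes in FL replicate 1 and LL replicate 1 and for 0 or 1 of 5 in the other libraries, and fibroblast markers for 4 and 5 of 5 against 0 to 2 of 5. The part of these differences in the results below was not tested. FL replicate 1 and LL replicate 1 also had the longest lists, with 58060 and 73410 peaks, against 15628 to 32066 in the others. In bulk tissue, fewer cells of a type and less opening per cell cannot be told apart. Here neither can be told apart from a shorter list with fewer fragments at the summits.

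The more libraries a region was called in, the more often it lay at a gene end. On chromosomes 1 to 10, gene ends held 5.14% of the 34574 regions called in 1 library, 6.95% of 17208 called in 2, 11.6% of 6988 called in 3, 18.7% of 4274 called in 4, 28.4% of 2939 called in 5 and 61.7% of the 5274 called in all 6. The largest step was between 5 and 6 libraries. Because the calls chose the regions, this is a description with no test. Of the 5274 regions, 3252 lay at a gene end, and 486 of those were 1500 bp or wider and were left out by the rule. The widest region kept was at THSD7A (1499 bp) and the narrowest left out for its width was at ARHGAP42 (1500 bp). The farthest kept lay 999.5 bp from an end of DHRS4 and the nearest left out lay 1001.5 bp from an end of CELSR1.

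**Figure D1:**
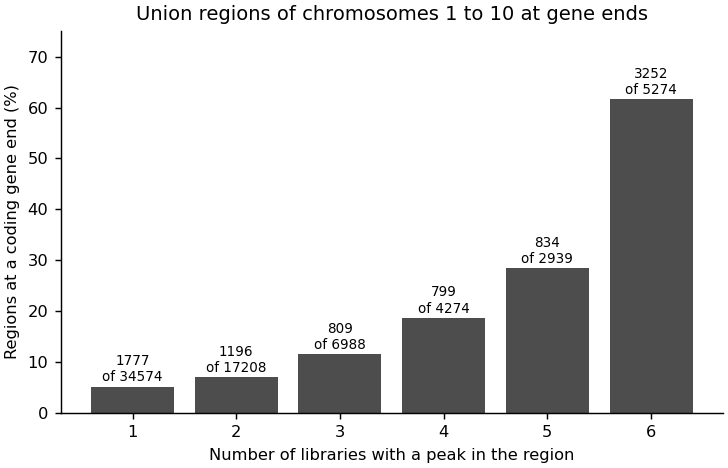
Bars give the share (%) of union regions on chromosomes 1 to 10 whose midpoint lay within 1000 bp of an end of a coding gene, by the number of libraries with a peak in the region, with the counts above each bar. The share climbs from 5.14% for regions called in 1 library to 61.7% for regions called in all 6, regions of any width included.

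By the rule the 2766 regions were under 1500 bp wide and within 1000 bp of an end. Their median width was 1014 bp (quartiles 846 and 1203.5 bp, range 263 to 1499 bp), and the midpoint lay a median of 127 bp from the nearest end (quartiles 55 and 239 bp). The midpoint fell inside a coding gene in 1542 regions (55.7%) and outside in the others. At least 1 of these regions was found for 3484 of the 9934 coding genes of chromosomes 1 to 10, or 35.1%. By chromosome the share of genes ran from 27.7% on chromosome 6 to 37.1% on chromosome 8. A further 586 genes (5.90%) had only a wider region called in all 6 libraries, 900 (9.06%) were called in 5 libraries at best, 2111 (21.3%) in 2 to 4, 691 (6.96%) in 1, and 2162 (21.8%) had no peak at an end in any library. Genes with no peak at an end were the shortest, with a median length of 9334.5 bp against 19337 bp for genes with an open region and 17017.5 bp for all.

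Nearly every gene with such an open region had it at a single end. Among the 3377 genes over 2 kb long that had one, 1620 had it at the end with the lower coordinate alone, 1656 at the end with the higher coordinate alone and 101 (2.99%) at both. Lower and higher ends were thus counted about equally often. An end with only a wider region, or only a region called in fewer libraries, counted as having none. Without strand, it cannot be told how many of these ends are starts.

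Summits lay just outside the genes. Over the 1954 regions at the end of a single coding gene, the median position of the summit was 60, 49 and 58 bp outside the gene in the FL birds and 60, 84 and 93 bp in the LL birds. The summit was outside in between 65.8% (FL replicate 2) and 74.5% (FL replicate 3) of these regions, and within 200 bp of the end on either side in between 62.3% (LL replicate 3) and 77.9% (FL replicate 1). LL replicates 2 and 3 had their summits farthest out, but LL replicate 1 had the same median as FL replicate 1. The line means were 55.7 ± 5.86 bp in FL and 79 ± 17.1 bp in LL (SD, 3 birds per line), which did not pass an exact two-sided permutation test over the 20 ways to assign libraries to lines (p = 0.2, adjusted over 4 measures 0.4, smallest p possible 0.1). The position of the summit was added to the comparison after the data were seen. Within a region, the 6 summits spanned a median of 172 bp, and in 25.1% of the 2766 regions they lay within 100 bp of each other.

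**Figure D2:**
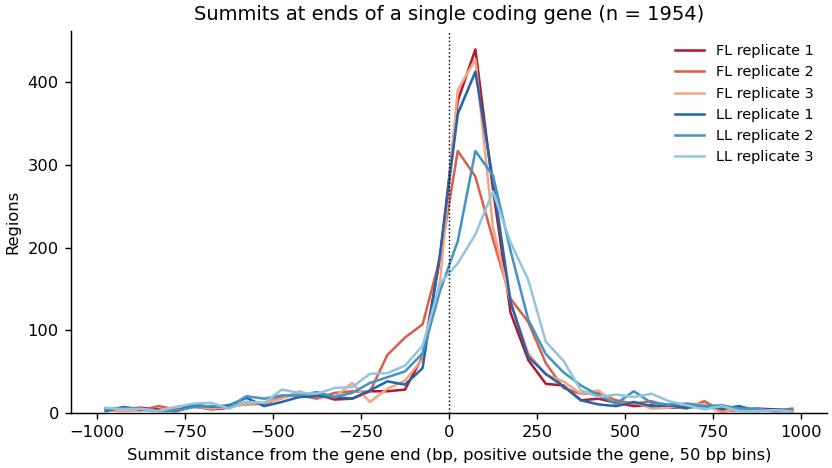
Lines give the number of regions per 50 bp bin of the summit's distance from the gene end (bp, positive outside the gene), 1 line per library, over the 1954 regions at the end of a single coding gene. All 6 libraries peak just outside the end, and the curves of LL replicates 2 and 3 lie farther out, with medians of 84 and 93 bp.

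Many of these regions lay at ends of more than one gene. Of the 2766, 1954 lay at the end of 1 coding gene, 793 at ends of 2 and 19 at ends of 3, so 29.4% lay at 2 or more. In 641 regions the ends belonged to 2 genes that faced each other across a gap, with a median gap of 203 bp (quartiles 98 and 423 bp), and in 418 the gap was under 300 bp. The summit fell inside the gap in all 6 libraries in 206 of the 641 and in no library in 115. On these chromosomes 958 pairs of neighbouring coding genes lay under 300 bp apart. Of these pairs, 398 (41.5%) had such a region with its midpoint within 1000 bp of both facing ends. An end of a long noncoding RNA gene also lay within 1000 bp in 354 regions (12.8%), and an end of a microRNA gene in 21. The authors' files do not say which gene a shared region acts on, so a value printed for a shared region belongs to each of its genes alike.

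Regions at 2 or more gene ends were stronger and wider than those at a single end, a comparison of 2 classes that the rule treats alike, although its call and width limits apply to both and bound both measures. Strength was read as the percent rank of a region's best peak within its own library's list by −log10 q, where a value near 0 is the strongest peak and 100 the weakest. The median percent rank at 2 or more ends was 4.08, 11.3, 15.2, 3.16, 15.7 and 23.2 over the 6 birds, and 5.70, 12.3, 15.6, 4.79, 17.8 and 25.7 at a single end. The regions at 2 or more ends were thus ahead in 6 of 6 libraries, by 1.53 ± 0.759 points (SD, n = 6; exact two-sided sign-flip permutation p = 0.031, the smallest possible; adjusted over 2 measures 0.031). Their peaks were wider in 6 of 6 libraries by 23.7 ± 8.62 bp (SD, n = 6; exact sign-flip permutation p = 0.031, adjusted 0.031). Both differences are small beside the spread between libraries, and the libraries share the same regions. With any 1 library left out both differences held their direction, but 5 libraries cannot give a p under 0.0625.

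Gene-end regions lay mostly in the stronger part of each list, a description with no test, since a call in all 6 lists was required of them. Their median percent rank was 5.23, 12.1 and 15.4 in the FL birds and 4.31, 17.3 and 24.9 in the LL birds. In the same order, 75.6%, 41.4%, 35.0%, 79.1%, 34.3% and 21.3% of the 2766 were in the top 10% of the list, and they made up between 29.8% and 41.8% of that top 10%. A percent rank moves with the length of the list, and the libraries with the longest lists had the lowest medians. In all 6 lists at once, 349 regions (12.6%) were within the top 10% and 1926 (69.6%) within the top 50%. The poorest rank of a region came from LL replicate 3, the shortest list, in 1435 of the 2766 regions (51.9%).

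The 1130 regions inside genes and more than 1000 bp from any gene end, also called in all 6 libraries and under 1500 bp wide, were the class compared with them. Their median percent rank was 13.2, 26.8 and 33.9 in FL and 10.4, 24.8 and 38.0 in LL, so that gene-end regions were stronger in 6 of 6 libraries, by 11.3 ± 4.86 points (SD, n = 6). Their fold enrichment over local background, the authors' ratio, was 6.77 ± 2.59 at gene ends and 5.41 ± 1.72 inside genes, and their peaks were 636 ± 222 bp and 480.25 ± 217 bp wide (mean of the library medians ± SD, n = 6). Gene ends were higher in both in 6 of 6 libraries. Each of these 3 differences had the smallest p that 6 libraries allow (exact sign-flip permutation p = 0.031) but missed 0.05 after adjustment over 5 measures (adjusted p = 0.0521). When every list was reduced to the length of the shortest, the adjusted p of all 3 was 0.0391. Their unadjusted p was the same smallest value. The adjusted p was lower only because a further measure, the summit distance given next, also reached that value. The number of peaks per region (1.06 ± 0.0501 against 1.04 ± 0.0306) and the distance of a summit from the region's median summit (32.3 ± 10.4 bp against 29.8 ± 7.83 bp) were higher at gene ends in 4 of 6 libraries (exact sign-flip permutation p = 0.125 for both). The second of these turned to -0.5 bp without LL replicate 3. The call and width limits apply to both classes and bound their strength and width. The libraries share the same regions, so these p-values measure how well the libraries agree. The comparison by number of gene ends had the same unadjusted p. It passed 0.05 after adjustment because both of its measures reached that value, which is no sign of stronger support.

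**Figure D3:**
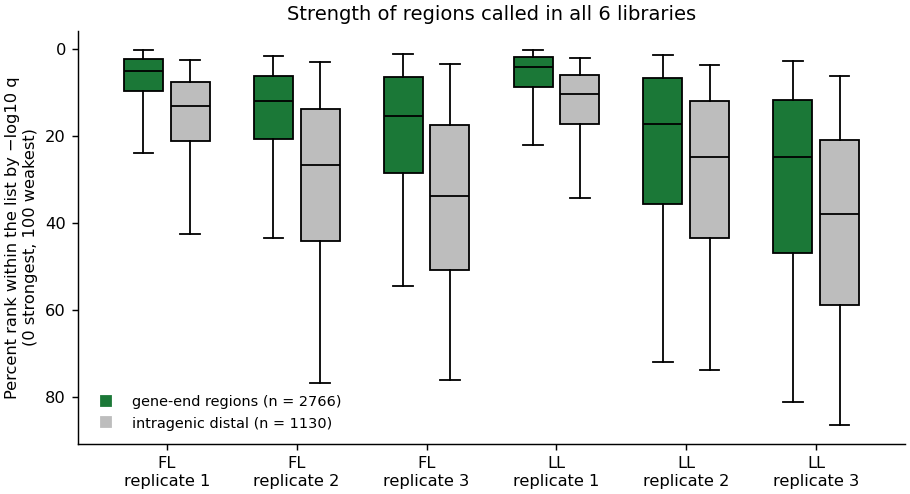
Boxes give the percent rank within the library's list by −log10 q (axis inverted, 0 strongest) of the 2766 gene-end regions (green) and the 1130 regions inside genes away from any end (grey), with median, quartiles and whiskers at the 5th and 95th percentiles. The gene-end median is stronger in all 6 libraries, and both classes rank lowest in LL replicate 3.

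Regions in the outer part of the window were weaker. The 1145 regions with midpoints up to 100 bp from an end had a median percent rank of 4.69, 11.2, 14.7, 4.12, 16.0 and 24.6 over the 6 birds. The 161 regions at 500 to 1000 bp had 9.96, 17.8, 22.4, 7.52, 27.6 and 33.7, weaker in every library. The 982 regions at 100 to 250 bp had 4.89, 11.7, 14.7, 3.92, 16.2 and 24.5, close to the first group. These medians are given with no test.

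The strongest regions, ranked by their poorest percent rank over the 6 lists, are described one by one, and 7 of the 10 lay at 2 gene ends. First was the end of RGS12, a regulator of G protein signalling, at chr4:81574719-81575686. Its percent rank was 0.193, 0.455 and 0.0345 in the FL birds and 0.549, 0.184 and 0.915 in the LL birds, with 340, 115, 180, 413, 144 and 104 fragments at the summit. The summits of the 6 libraries lay within 10 bp of each other, and no library ranked it outside its top 1%. INTS9, a subunit of the Integrator complex that processes small nuclear RNAs, and HMBOX1, a telomere-binding homeobox protein, came next. They share the region at chr3:105895570-105896386. Its percent rank was 0.689, 0.611 and 0.0561 in FL and 0.827, 0.588 and 1.06 in LL. The third lay at an end of DERL1 and an end of TBC1D31 (chr2:136910740-136911903), with all 6 summits inside DERL1. DERL1 helps to remove misfolded proteins from the endoplasmic reticulum, and TBC1D31 is a protein of the centrosome region. The region ranked at 0.791, 1.09 and 0.811 in FL and 0.336, 1.12 and 0.864 in LL. There the summits were less fixed and spanned 252 bp, the widest of the 10.

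The others of the 10 had their poorest percent rank at 1.41 or better. They were the regions of GRK4, a G protein-coupled receptor kinase, and NOP14, a factor of ribosome assembly (chr4:81753751-81754587), and of PARP4 and the centriole protein CENPJ (chr1:179159543-179160411). The region of SDCCAG8 and CEP170, both centrosome proteins (chr3:34906670-34907754), and that of the polarity scaffold PATJ and TM2D1 (chr8:27002290-27003106) followed. MORC4 (chr1:106725615-106726975), the pair of PDCD10, a signalling adaptor, and SERPINI1, a protease inhibitor of neurons (chr9:20310374-20311569), and RTTN, a centriole protein (chr2:93210898-93211662), completed them. The region of GRK4 and NOP14 reached 0.0172 in FL replicate 1 and 0.0302 in FL replicate 3. At the region of RTTN, 5 summits lay within a few bases and the range over the 6 was 29 bp.

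The weakest regions were called in every bird but lay at the very end of a list in at least 1. SPIRE1, an actin nucleator (chr2:96642957-96643961), ranked at 12.5, 4.77 and 7.06 in the FL birds and at 15.3, 59.6 and 99.93 in the LL birds, so that its call in LL replicate 3 rested on 22 fragments. NID1, which encodes a basement membrane protein (chr3:37565478-37565903), ranked at 32.9, 31.5 and 85.8 in FL and 65.3, 79.8 and 99.8 in LL. The other 3 were at KLF10, a Krüppel-like transcription factor, at CCDC83 with SYTL2, and at UNC50 with COA5, and all 5 had their poorest rank in LL replicate 3.

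Genes of the basic machinery of the cell had an open end in every bird far more often than coding genes in general, and genes restricted to particular cell types far less often. Against 35.1% of all coding genes, the 12 lists of machinery genes lay between 57.5% and 78.9%. The 12 lists of markers of cell types other than fat cells, channels, receptors, homeobox, adhesion, collagen and cytokine genes lay between 0% and 15.4%. The lists were put together with earlier results of these data known, the shares are given with no test, and genes that share a region are not independent.

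In the protein-making machinery, 30 of 38 cytosolic ribosomal protein genes (78.9%), 21 of 29 genes of translation initiation and elongation factors (72.4%) and 25 of 41 mitochondrial ribosomal protein genes (61.0%) had such a region. No ribosomal protein gene of the cytosol and no translation factor gene lacked a peak in every library. The best-ranked were RPS24, which shares its region with POLR3A, the largest subunit of RNA polymerase III (chr6:13936508-13937630; percent rank 0.661, 0.948, 1.43, 0.593, 0.257 and 0.781 over the 6 birds), RPS16 and RPL4, which shares its region with SNAPC5. EIF1B, an initiation factor that shares its region with LOC124417712, ranked between 0.528 and 3.85. MRPL32, of the large mitochondrial ribosomal subunit, shares its region with PSMA2, a core subunit of the proteasome (chr2:51161092-51162199), which ranked between 0.0982 in FL replicate 1 and 1.5 in LL replicate 3.

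For energy metabolism, 28 of 40 genes of the respiratory chain and ATP synthase (70.0%) had an open end in every bird, led by ATP5O, NDUFA9 and NDUFA4. These counts include assembly factors, such as NDUFAF1, NDUFAF4 and NDUFAF7, beside the subunits. For protein quality control, the counts were 29 of 43 chaperone genes (67.4%), 10 of 16 proteasome genes (62.5%) and 46 of 80 genes of ubiquitin conjugation and removal (57.5%). The chaperone genes were led by DNAJC17 and DNAJC15, co-chaperones of the DNAJ family, and by TCP1, a subunit of the chaperonin that folds actin and tubulin. DNAJC17 shares its region with LOC107053361, and TCP1 shares its region with the mitochondrial ribosomal protein gene MRPL18. In the lists for DNA and RNA, 32 of 43 genes of replication and repair (74.4%) and 23 of 35 of the spliceosome and RNA processing (65.7%) were counted. The counts were 34 of 53 for the polymerases, mediator and general factors (64.2%) and 25 of 43 for chromatin enzymes and related factors (58.1%). SETD3, a methyltransferase placed in the chromatin list, shares its region with the cyclin gene CCNK. Its region ranked first or near it in FL replicate 1 (0.0103) and LL replicate 1 (0.00545) but lower in FL replicate 2 (6.73). For vesicle traffic the count was 65 of 109 genes (59.6%), in a list that also held genes of protein entry into the endoplasmic reticulum. The best-ranked, SEC61B, was of this second kind, a part of the channel that passes proteins in. Its region is shared with ALG2, of protein glycosylation.

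Regulators lay between these lists and those of restricted genes. Of the zinc finger and BTB factors 33 of 68 (48.5%) had an open end in every bird, and of the immediate early and stress factors 6 of 13 (46.2%), which were KLF6, CEBPD, MYC, ATF3, ZFP36L1 and JUN. Such genes are known to answer quickly to growth signals and stress. Of the circadian clock 3 of 11 (27.3%) did, the kinase gene CSNK1E, the repressor gene CRY1 and ARNTL, listed under its synonym BMAL1, the activator of the clock. ARNTL ranked at 1.78 and 1.39 in FL replicate 1 and LL replicate 1 and between 16.8 and 28.6 in the other 4 libraries.

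Genes of fat cells did not form a uniform group. Of the adipocyte identity list 3 of 10 on these chromosomes (30%) had a region open in every bird, beside 35.1% of all coding genes, and each of the 10 had a peak at an end in at least 1 library. FABP4, a carrier of fatty acids in fat cells (chr2:121039404-121040577), ranked at 11.6, 12.3 and 35.4 in the FL birds and at 7.64, 16.2 and 37.4 in the LL birds. CEBPD, a transcription factor of early fat cell formation (chr2:107581125-107582520), ranked at 12.5, 5.19 and 17.5 in FL and 7.53, 6.21 and 11.4 in LL. The lines overlapped at both genes. The last of the 3 was ABHD4, which the gene table gives as holding the listed synonym ABHD5. ADIPOQ, the gene of adiponectin, and ADIPOR2, a receptor for it, were called in 5 libraries at best, and CD36, a fatty acid transporter, in 2 to 4.

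Genes of fatty acid oxidation had the highest share of the metabolic lists. Of the lipolysis and oxidation list 9 of 12 (75%) had an open end in every bird, against 9 of 21 (42.9%) for lipid synthesis (fatty acids and triglycerides), 7 of 15 (46.7%) for regulators of adipogenesis and 7 of 16 (43.8%) for insulin and glucose. The difference between the lists was not tested. The 9 were mainly enzymes of mitochondrial β-oxidation and electron transfer, DECR1, ETFDH, ETFA, HADHA, HADHB, ACADL, CPT1A and ECI2, with ABHD4. DECR1, an auxiliary enzyme for unsaturated fatty acids (chr2:123979763-123981122), ranked at 1.55, 1.18 and 6.63 in FL and 1.89, 1.76 and 1.82 in LL, and ETFDH, which passes electrons from β-oxidation to the respiratory chain and shares its region with C4H4ORF46, between 2.08 and 9.14. HADHA and HADHB, which encode subunits of the same trifunctional enzyme, share a single region, so they are not independent. PNPLA2, the first lipase of lipolysis, had a region called in all 6 libraries that was too wide for the rule, while CPT2 was called in 1 library at best and PPARA, the receptor that drives oxidation genes, in 2 to 4.

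In the lipid synthesis list, ACSL3, an acyl-CoA synthetase (chr9:7735259-7736377), ranked at 1.90, 3.18 and 1.78 in the FL birds and 1.94, 5.32 and 4.52 in the LL birds. MOGAT1, an acyltransferase whose region is shared with FARSB, a subunit of a tRNA synthetase, lies on the same chromosome (chr9:7694416-7695494). ACSL1 and AGPAT3, of fatty acid activation and phospholipid synthesis, were called in 1 library at best, and ACSL5 had no peak at an end. Of the regulators of adipogenesis, KLF3, RB1 and KLF7 were best-ranked, while DLK1, a preadipocyte protein that holds back fat cell formation, was called in 2 to 4 libraries and GATA3, another repressor, had no peak at an end. In the insulin and glucose list IRS4, an adaptor of the insulin receptor that shares its region with LOC124417941 (chr4:13833782-13835075), ranked between 0.222 in LL replicate 1 and 5.0 in FL replicate 3, PIK3CA, the catalytic subunit of a lipid kinase, whose region is shared with ZMAT3, between 1.38 and 27.2, and SLC2A14, listed under the synonym SLC2A3, between 4.12 and 29.0. FOXO1, a transcription factor restrained by insulin, was called in 2 to 4 libraries.

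On chromosomes 1 to 10, few genes of the lists for other cell types had such a region. The counts were 0 of 8 for endothelial, 0 of 8 for neuronal, 0 of 10 for skeletal muscle and 0 of 11 for hepatocyte genes, and 2 of 13 for fibroblast and progenitor genes, 1 of 8 for myeloid and lymphocyte genes. Of the endothelial genes 6 were called in 2 to 4 libraries, whereas 8 of 11 hepatocyte genes and 6 of 10 skeletal muscle genes had no peak at an end in any library. The 2 fibroblast and progenitor genes were MFAP5, of elastic microfibrils, and DPP4, a surface peptidase of progenitors, and the myeloid gene was LYZ, the lysozyme gene, which shares its region with YEATS4, a chromatin protein. In the whole genome, where a call at either end counts, the mesothelial markers WT1 and MSLN (2 of 3) and the hepatocyte marker APOA1 (1 of 3) also had a peak in all 6 libraries. Of the channels 7 of 68 (10.3%), of transmitter receptors 1 of 47 (2.13%) and of homeobox cluster genes 2 of 20 were counted. Those 2, HOXA9 and HOXA10, are annotated with the same end coordinate and share 1 region there. Of claudins, keratins and cadherins 2 of 25, of collagens 1 of 29 and of chemokines and interleukins 0 of 16 were counted. The best-ranked channel gene, SCN11A, shares its region with WDR48, and COL28A1 shares its region with MIOS, a protein of nutrient sensing.

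**Figure D4:**
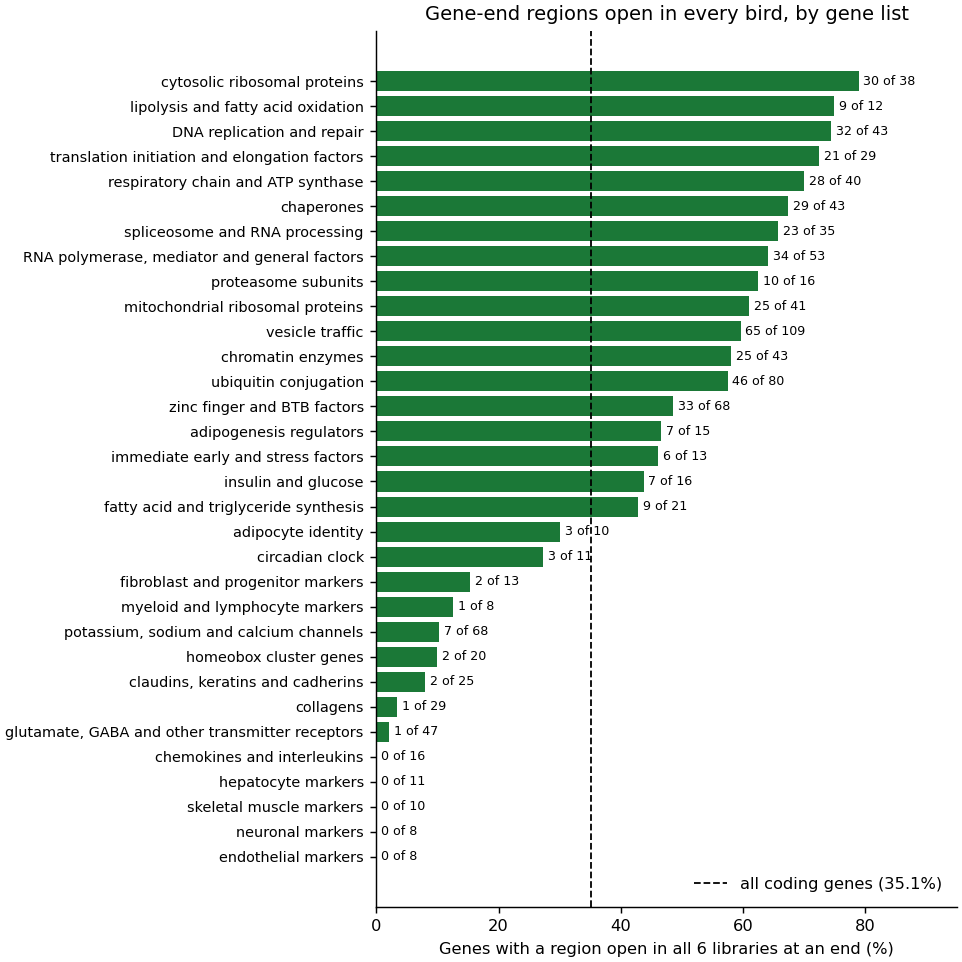
Bars give the share (%) of the genes of each list on chromosomes 1 to 10 with a region open in all 6 libraries at an end, with the counts beside each bar. The dashed line marks all coding genes (35.1%), and lists of the basic machinery lie to its right while lists of restricted genes lie to its left.

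Strength among the genes with an open end is given by list, with no test. The poorest percent rank over the 6 lists had a median of 32.8 over all 2766 regions. It was 21.9 for chaperones and for vesicle traffic and 23.7 for the proteasome, and 44.6 for zinc finger and BTB factors, 55.4 for lipid synthesis and 50.2 for the 7 channel genes. The machinery lists lay on both sides of 32.8. The median was poorer for spliceosome and RNA processing (35.6) and for ubiquitin conjugation and removal (37.7), and better than 32.8 in every other machinery list. It was 36.6 for lipolysis and oxidation, while the circadian clock and the immediate early and stress lists were better than 32.8. In the lipid synthesis list, ACSL3 and MOGAT1 ranked at 5.32 and 5.93 in their poorest library, and ACSL4, another acyl-CoA synthetase, at 34.2.

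The last question was whether the regions differed in strength between FL and LL, which the rule did not use. The peaks of the 7605 regions of the genome called in all 6 libraries were ranked by −log10 q within each library, so that each library ranked the same regions, and the normal scores of the ranks were compared with limma. After Benjamini-Hochberg adjustment 0 regions passed (0% of 7605; lowest adjusted p = 0.391), 0 of them among the 2766. At an unadjusted p under 0.05, 4.65% of all 7605 were higher in FL and 6.51% higher in LL. Of the 2766 gene-end regions 150 (5.42%) were higher in FL and 64 (2.31%) in LL, so calls in FL were near the background and calls in LL below it. Every FL library was above every LL library at 241 gene-end regions (8.71%), against 7.11% of all regions, and the reverse held at 147 (5.31%), against 9.73%. When the 2766 gene-end regions alone were ranked and fitted, the unadjusted calls were 107 in FL and 119 in LL. That ranking centres the gene-end regions in each library, so it removes any shift they share and cannot show one. The counts of the fit over all regions depended on single libraries. Without FL replicate 1 the unadjusted calls were 278 in FL and 189 in LL of 2819 gene-end regions (9.86% and 6.70%, against 9.73% and 10.9% of all regions fitted). Without FL replicate 2 they were 67 and 38 of 2856 (2.35% and 1.33%, against 2.10% and 4.07%), and without FL replicate 3 they were 68 and 23 of 2829 (2.40% and 0.813%, against 1.78% and 3.86%). Leaving out LL replicate 1 gave 241 and 76 of 3025 (7.97% and 2.51%, against 6.50% and 7.58%), and leaving out LL replicate 2 gave 77 and 30 of 2885 (2.67% and 1.04%, against 2.51% and 3.30%). Leaving out LL replicate 3 gave 94 and 36 of 3274 (2.87% and 1.10%, against 3.03% and 4.18%). With both FL replicate 1 and LL replicate 1, the pair that stood apart, left out, they were 362 and 177 of 3143 (11.5% and 5.63%, against 10.5% and 11%). In each of these settings the LL share was lower among gene-end regions than among all regions fitted, and the FL shares differed less.

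No summary of the gene-end regions passed a test between the lines. Their median percent rank among the 7605 was 34.7, 38.1 and 37.1 in the FL birds and 35.9, 43.0 and 42.6 in the LL birds, with LL replicate 1 inside the FL range (exact permutation p = 0.3, adjusted 0.4). Their median peak width was 591 ± 244 bp in FL and 681 ± 240 bp in LL (SD over 3 birds per line; exact permutation p = 0.6, adjusted 0.6). The mean number of peaks per region was 1.09 ± 0.0491 in FL and 1.02 ± 0.0180 in LL (SD over 3 birds per line; exact permutation p = 0.2, adjusted 0.4). No such comparison can give a p under 0.1 with 3 birds per line.

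The regions with the lowest p in either direction are given by their values, none of which passed after adjustment (limma adjusted p = 0.391 for each of the 10). Values are percent ranks among the 7605 regions, in which 0 is the strongest. In FL the first was the region shared by C10H15ORF48 and SPATA5L1 (chr10:10689935-10690938), at 79.6, 53.9 and 37.9 in the FL birds and 94.4, 98.1 and 99.2 in the LL birds. STX7, which encodes a membrane fusion protein of endosomes (chr3:56533970-56535159), was at 24.2, 11.7 and 6.54 in FL and 45.0, 92 and 85.6 in LL, and its summits in LL replicates 2 and 3 lay inside the gene while those of the other libraries lay within 26 bp of the end. B3GLCT, a glucosyltransferase, shares its region with HSPH1, a chaperone of the heat shock response (chr1:174846749-174847580), at 14.9, 2.63 and 4.17 in FL and 30.3, 66.9 and 72.2 in LL. RIF1, a regulator of replication timing, shares its region with TNFAIP6, which encodes a secreted hyaluronan-binding protein of inflammation (chr7:34754582-34755792), at 26.6, 13.3 and 34.2 in FL and 52.8, 98.1 and 98.3 in LL. MAPRE2, a protein of microtubule ends (chr2:107231277-107232662), was at 71.4, 61.6 and 62.3 in FL and 87.0, 99.2 and 99.2 in LL. At all 5 the lines did not overlap, and LL replicate 1 was the LL library closest to FL.

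In LL the first was CYP8B1, a sterol hydroxylase of bile acid synthesis (chr2:2116042-2116855), at 42.7, 12.8 and 8.14 in the LL birds and 89.8, 74.3 and 80.8 in the FL birds, a difference of -1.84 ± 0.42 in normal scores (FL minus LL, SE). GNAI1, an inhibitory G protein subunit that lowers cyclic AMP, the signal that starts lipolysis in fat cells (chr1:11611707-11612938), was at 13.5, 7.26 and 2.91 in LL and 49.0, 65.7 and 45.1 in FL. PAQR5, a membrane receptor for progestins (chr10:19354512-19355471), was at 40.9, 32.8 and 37.5 in LL and 73.8, 94.2 and 90.2 in FL. ABCB10, a transporter of the inner mitochondrial membrane (chr3:39748044-39749078), was at 33.6, 9.41 and 12.7 in LL and 56.3, 91.5 and 74.5 in FL. MREG, which encodes melanoregulin, a protein of pigment organelle transport, shares its region with LOC424014 (chr7:4617605-4618553) and was at 6.90, 2.25 and 2.06 in LL and 24.4, 30.2 and 68.1 in FL. The groups were again apart at all 5, which the choice by lowest p favours.

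**Figure D5:**
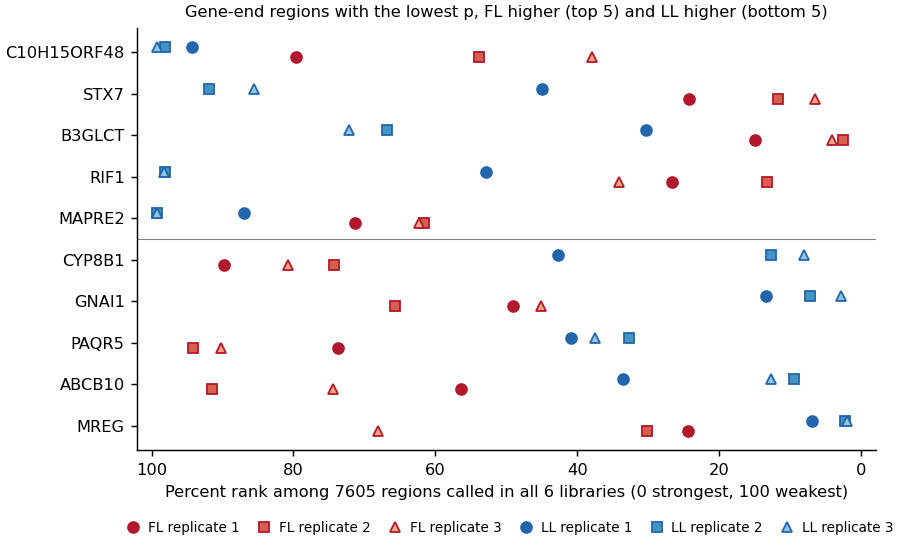
Points give the percent rank among the 7605 regions called in all 6 libraries (axis inverted, 0 strongest, to the right) of the 5 gene-end regions with the lowest p in each direction, FL libraries in red and LL libraries in blue, with the symbol giving the replicate. In the upper 5 every FL library lies to the right of every LL library and in the lower 5 the reverse holds. The choice of regions by lowest p favours this.

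By list, the median difference between the lines took both signs. The median of FL minus LL in normal scores was 0.109 over the 2766 gene-end regions and 0.0189 over all 7605. Both medians were positive, so a list in which most regions were higher in FL is not set apart by that alone. It was 0.183 over the 30 regions of cytosolic ribosomal proteins, of which 21 were higher in FL, and 0.186 over the 32 of replication and repair, of which 24 were. It was -0.227 over the 10 of the proteasome, of which 2 were higher in FL. The 8 regions of the lipolysis and oxidation list had a median of 0.499, with 6 of 8 higher in FL, and 1 of them, at ACADL, an acyl-CoA dehydrogenase, and KANSL1L, had an unadjusted p under 0.05. This was not particular to that list: the 7 regions of the channel list had a median of 0.498, with 6 of 7 higher in FL.

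In the lipid synthesis list, 3 of 9 regions had an unadjusted limma p under 0.05, against 11.2% of all 7605 regions and 7.74% of the 2766, and they are named because of their values. SCAP, which escorts the lipogenic factor SREBP out of the endoplasmic reticulum (chr2:970083-970850), was at 63.5, 84.0 and 92.3 in the FL birds and at 39.9, 28.7 and 45.4 in the LL birds, stronger in LL (limma adjusted p = 0.393). INSIG2, which holds SCAP back in the endoplasmic reticulum (chr7:28462360-28463306), was at 76.4, 22.6 and 27.0 in FL and 82.8, 96.4 and 77.4 in LL, stronger in FL (limma adjusted p = 0.402). LPIN2, a phosphatidate phosphatase, was at 37.8, 53.4 and 35.0 in FL and 44.4, 91.5 and 89.0 in LL, and its lines overlapped. Of the chaperone regions 4 of 28 had such a p, beside the same 11.2% of all regions. All 4, at HSPH1, CCT2, DNAJC19 and DNAJC24, which shares its region with DCDC1, were stronger in FL, while the median over the 28 was -0.158 with 13 higher in FL.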

How the data were processed

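Abdominal fat of 6 chickens was profiled by ATAC-seq, and the labels' titles and group tags put 3 libraries in FL and 3 in LL. Per the submitters' processing notes the authors' tools were MACS3 3.0.0b1, bedtools 2.30.0, BWA, SAMtools, Trim Galore and FastQC, and the assembly was GRCg7b. Settings, duplicate handling and any Tn5 shift, which can move summits and widths, were not stated in the sources used here. Each deposited list belongs to 1 library and gives, per peak, coordinates, the summit, a score, −log10 p, −log10 q and a fold enrichment, which is the authors' ratio to local background. The deposited −log10 q starts at 2.01 to 2.03 in every list.

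Peaks were merged, and gene ends were taken from a RefSeq table of GRCg7b with 18023 coding genes. Fragments at a summit were solved as whole numbers from the deposited fold and −log10 p within a tolerance of 1e-04, which succeeded for 100% of peaks. The lists give no read totals, and fragments at a summit are not a direct measure of depth. The lowest local background solved with them was 8.26, 4.90, 2.23, 8.10, 5.80 and 8.73 over the 6 libraries. By this value LL replicate 3, which had few fragments at its summits, was the highest. Intervals on the fragments would cover counting error only. Each bird is 1 library, so spread between birds and between library preparations cannot be told apart. The p-values of the line comparisons measure this joint spread. Those of the sign-flip comparisons measure how well the libraries agree on a difference. The line comparison used limma 3.58.1 (R 4.3.3) over 7605 regions with Benjamini-Hochberg adjustment, and other tests were exact permutations over libraries (Python 3.11.15, scipy 1.17.1). The fit was also run on simulated data whose noise was independent between libraries. FL replicate 1 and LL replicate 1 stood apart as a pair, so that run does not show how the fit performs on these data.

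The regions and the 32 gene lists were chosen with earlier results of these data known. Lists defined by symbol patterns were edited after matching, to remove genes of another role such as RPS6K kinases. Genes of a related role stayed in some lists, such as USP genes, which remove ubiquitin, in the ubiquitin list. The chromatin list kept ARID genes, the vesicle traffic list SEC61 genes and the respiratory chain list NDUFAF assembly factors. Genes were named by rule: the 10 strongest and 5 weakest regions by their poorest rank, the 5 with the lowest p in each direction, and up to 3 per list. From fat cell lists up to 3 genes without an open region were added in alphabetical order. A gene named by this rule is not reported here. The planned comparison of gene starts with other ends and the motif search need strand and sequence, which were not used here, and were not run. Alternatives left out single libraries or changed the threshold, list length, overlap, width, distance, gene set, ranking column, scale and fit.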

Additional observations from a re-analysis of the deposited data

How the results depend on the processing

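Of the values recomputed under alternatives, 510 kept their direction and side of the threshold or moved little, 53 moved, 14 no longer passed, 4 newly passed and 1 reversed. The 14 concern regions at more than 1 gene end with libraries left out, where too few libraries remain for a sign-flip p under 0.05. The 4 concern gene ends against regions inside genes at equal list lengths, where more measures shared the smallest p. These changes do not measure robustness. The comparison of gene starts with other ends and the search for promoter motifs were not run. After adjustment 0 regions differed between FL and LL under every alternative run. For the 10 regions named by line, which were picked by p, the lowest adjusted p of 148 alternative values was 0.0865. The labels do not say that replicate numbers pair the birds. Deviations from the line mean correlated between same-numbered libraries at 0.530, 0.242 and 0.00132, highest for replicate 1, the pair that stood apart. Whether the numbers pair the birds was not tested. With the replicate block, 213 gene-end regions (7.7%) had an unadjusted limma p under 0.05 in FL and 98 (3.54%) in LL. The shares of all 7605 regions were 7.03% and 8.59%. With gene-end regions fitted alone the counts were 107 (3.87%) and 119 (4.3%). Leaving out each library in turn gave 67 to 278 such gene-end regions in FL and 23 to 189 in LL. Without FL replicate 1 and LL replicate 1 together, chosen after seeing the data, the numbers were 362 and 177. For the settings with libraries left out, the shares of all regions fitted are given with the line comparison above.

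For regions at 2 or more ends against a single end, leaving out each library gave a percent rank difference of -2.19 to -1.57 and a width difference of 24.1 to 26.6 bp, with an adjusted p of 0.0625, the smallest that 5 libraries allow. Without FL replicate 1 and LL replicate 1 together the differences were -2.33 and 27.6 bp (adjusted p 0.125, the smallest that 4 libraries allow). Gene ends against regions inside genes passed 0.05 at equal list lengths, with differences of -13.7 in percent rank, 1.01 in fold, 139.25 bp in width and 5.125 bp in summit distance (exact sign-flip permutation, adjusted p 0.0391). Rank, fold and width had the smallest possible p with full and with equal lists. Their adjusted p fell only because the summit distance reached that p too. The summit distance ran from -0.5 bp (without LL replicate 3) to 2.3 bp with 1 library left out. The cause was not tested.

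The share of coding genes with an open end was 29.6% with −log10 q of at least 5, 30.8% at equal list lengths, 41.0% with no width limit, 32.1% with a window of 500 bp and 39.3% without FL replicate 1 and LL replicate 1. Under these 5 settings the machinery lists lay between 46.5% and 92.1% and the restricted lists between 0% and 30.8%. Fragments at the summit, a median of 45 in the libraries with the fewest, limit how finely weak regions can be ranked.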
